A study of Homo sapiens with 12 samples.

Results

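NRF2, encoded by NFE2L2, is the transcription factor that switches on antioxidant and detoxification genes. KEAP1, a cysteine-rich adaptor of the CUL3 ubiquitin ligase, keeps NRF2 low by marking it for degradation, and electrophiles or oxidants that modify KEAP1 let NRF2 accumulate. NRF2 then pairs with a small MAF protein on antioxidant response elements, while BACH1 occupies the same elements as a repressor until heme removes it. In bile duct cancers the pathway is known for loss of KEAP1 function and for its part in drug resistance. Transcripts of 9 targets of this pathway were followed in a pair of cholangiocarcinoma lines: SLC7A11, GCLC and GCLM, which feed glutathione synthesis, TXNRD1 and SRXN1 of the thioredoxin and peroxiredoxin system, the NADPH source ME1, the heme and quinone enzymes HMOX1 and NQO1, and OSGIN1. The 9 genes were chosen by symbol among the 58216 genes of the deposited count table, with earlier results of these data known. All 9 passed the filter on low counts that left 18035 genes for testing.

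RNA of 4 groups with 3 biological replicates each was sequenced as read pairs: RBE cells with anlotinib, RBE control cells, HCCC9810 cells with anlotinib and HCCC9810 control cells. Both are established human lines of intrahepatic cholangiocarcinoma, a bile duct cancer that arises inside the liver. Anlotinib inhibits VEGF, FGF and PDGF receptor kinases and was given at 5 µM for 24 h in medium with serum, at a final 0.1% of the solvent dimethyl sulfoxide. The sources used here do not say whether the control cells received the solvent. Each line stands for 1 tumour, so a difference between the lines is a difference between these 2 cultures.

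Counted reads per library were 18227987 to 40963529 in RBE with anlotinib, 17779598 to 31956474 in RBE control, 15215193 to 17722970 in HCCC9810 with anlotinib and 16240478 to 22567927 in HCCC9810 control. Libraries are called by the number in their column header, which is 4 to 6, 1 to 3, 10 to 12 and 7 to 9 in the same order of groups. These numbers conflict with the sample titles, in which each of the 12 numbers belongs to the other treatment of the same line. Groups were taken from the words for control and treatment in the headers. If the numbers rather than the words were right, the sign of every treatment effect below would turn round, and the comparison of control cells would be that of treated cells. Libraries 6 and 7 lay farthest from their own groups, on an axis of within-group variation that followed the GC content of the genes (Spearman rho of 0.744 across genes, which are not independent replicates). Calls on the 9 genes that change without libraries 6 and 7 are given both ways. Markers of bile duct and simple epithelium were present, with at least 6 of 7 over 1 RPKM (reads per kilobase of gene length and library depth) in every group, and the keratin KRT19 averaged 469 RPKM in RBE with anlotinib, 312 in RBE control, 747 in HCCC9810 with anlotinib and 1442 in HCCC9810 control. Summed over each list, 5 hepatocyte markers reached at most 6.20 RPKM in a library, 4 fibroblast markers 14.2, 4 endothelial markers 4.54 and 4 leukocyte markers 0.914, and the leukocyte gene PTPRC was at 0.0779 RPKM or below on average in each group.

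In RBE cells 7 of the 9 genes rose with anlotinib and none fell, while in HCCC9810 cells none rose and 2 fell. The 7 were HMOX1, OSGIN1, TXNRD1, SRXN1, SLC7A11, ME1 and GCLC, and the 2 were SLC7A11 and GCLM. NQO1, a target often used to read NRF2 activity, differed by less than the spread between replicates in both lines. A gene is called here when edgeR's quasi-likelihood test gives an adjusted p below 0.05 over all 18035 genes. By that rule 9.37% of all genes were higher and 8.32% lower in RBE, and 11.1% were higher and 12.8% lower in HCCC9810. The median log2 fold change of the 9 genes was 0.88 in RBE, where that of all genes was 0.02, and -0.03 in HCCC9810, where that of all genes was -0.05. The libraries of the 2 treatments did not overlap for 7 of the 9 genes in RBE, beside 35.0% of all genes, and for 4 of the 9 in HCCC9810, beside 38.3% of all genes. Without libraries 6 and 7, 8 genes were called higher in RBE and 2 lower in HCCC9810. In bulk RNA fewer cells with a transcript and less of it per cell cannot be told apart.

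**Figure D1:**
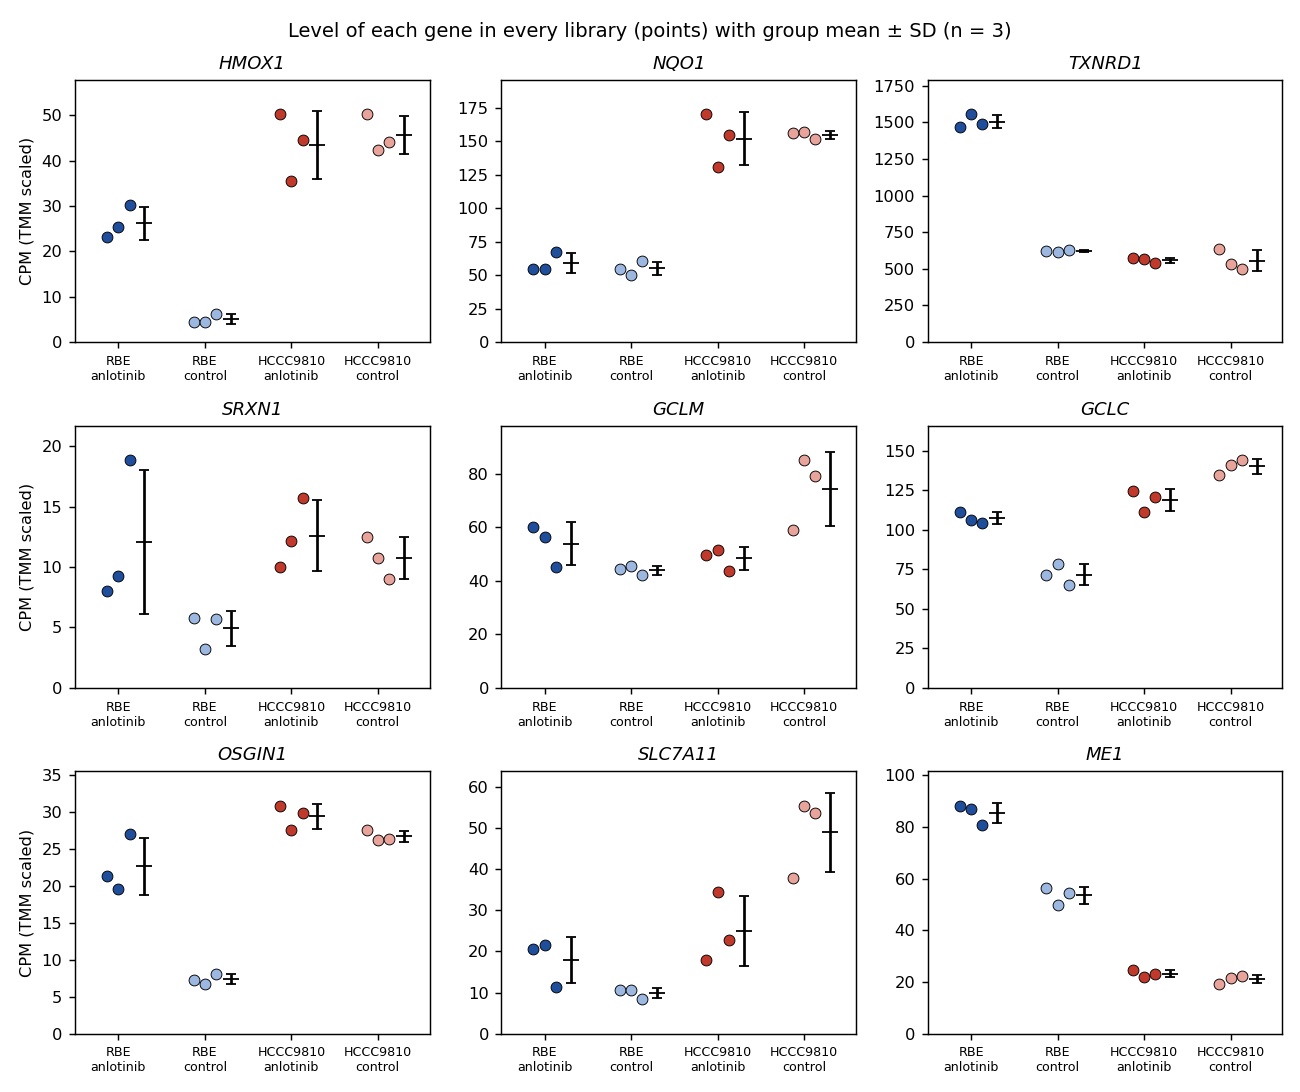
Level of each of the 9 genes in every library, in CPM (read counts scaled to library size with TMM factors; linear axes from 0), with anlotinib left of control in each line; the bars beside the points are group means ± SD (n = 3). HMOX1, OSGIN1 and TXNRD1 of RBE cells with anlotinib stand clear of RBE control, and SRXN1 has 1 high RBE library at 18.9 CPM.

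Several of these genes have a match to the core of the antioxidant response element, TGACNNNGC, in the promoter, and the windows around the matches that lie upstream of a start site are shown because NRF2 acts through this element. RefSeq promoters (GRCh38.p14, 250 bases before to 50 bases after the start site) were available for 7 of the 9 genes, in 8 windows. No promoter window was available for HMOX1 and SLC7A11, so these genes were not searched. A match on either strand was found in 4 of the 8 windows, and in 13.3% of all 35116 promoter windows. Each sequence runs 5′ to 3′ on the strand of its gene with 25 bases on each side of the match, the capitals mark the match, and a match on the opposite strand appears as its reverse complement.
GCLM, chr1:93909431-93909489, minus strand, match at -34 to -26 from the start site on the opposite strand: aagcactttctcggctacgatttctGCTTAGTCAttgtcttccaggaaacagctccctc
ME1, chr6:83431155-83431213, minus strand, match at -137 to -129: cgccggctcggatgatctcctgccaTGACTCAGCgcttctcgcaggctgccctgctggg
TXNRD1, chr12:104215655-104215713, plus strand, match at -99 to -91 of the upstream start site: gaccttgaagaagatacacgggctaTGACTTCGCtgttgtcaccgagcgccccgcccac
TXNRD1, chr12:104286905-104286963, plus strand, match at -102 to -94 of the downstream start site on the opposite strand: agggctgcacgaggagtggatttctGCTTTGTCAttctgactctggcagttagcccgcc
A second match lay over the start site in the upstream TXNRD1 window (-8 to 1) and another downstream of it in ME1 (12 to 20). No match was found in these windows for GCLC, NQO1, OSGIN1 and SRXN1, which says nothing of elements farther away. Of the genes with a match, TXNRD1 and ME1 were called in RBE and GCLM was not, and of the genes without, GCLC, OSGIN1 and SRXN1 were called.

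Glutathione synthesis begins with cystine, which SLC7A11 (chromosome 4, 138164097 to 138242349, minus strand, GRCh38) brings into the cell in exchange for glutamate. SLC7A11 had 20.6, 21.6 and 11.4 CPM in RBE libraries 4, 5 and 6 with anlotinib, against 10.5, 10.5 and 8.37 CPM in RBE control libraries 1, 2 and 3. Every treated RBE library lay above every control, although library 6 came within 1 CPM of the highest control. The log2 fold change in RBE was 0.88 ± 0.27 (SE; adjusted p = 0.0412). This call was weak: it was lost in 9 of 22 alternatives, among them leaving out library 1, 2, 3, 4, 5 or 12 (adjusted p between 0.0516 and 0.148), and without libraries 6 and 7 the fold change was 1.10 (adjusted p = 0.00234).

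In HCCC9810 the same transporter went the other way. SLC7A11 had 17.8, 34.4 and 22.8 CPM in HCCC9810 libraries 10, 11 and 12 with anlotinib, against 37.8, 55.4 and 53.5 CPM in control libraries 7, 8 and 9. The groups did not overlap, and the log2 fold change was -0.97 ± 0.27 (adjusted p = 0.0203). The call was lost without library 8, 9, 10 or 12 (adjusted p between 0.0633 and 0.077). The antisense gene SLC7A11-AS1 shares 8.97% of the exon bases of SLC7A11 and had 1 to 26 counts per library.

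GCLC (chromosome 6, 53497341 to 53616970, minus strand) and GCLM (chromosome 1, 93885205 to 93909456, minus strand) encode the catalytic and the modifier subunit of glutamate-cysteine ligase, which joins glutamate and cysteine in the rate-limiting step of glutathione synthesis. GCLC had 111, 106.5 and 104 CPM in RBE libraries 4, 5 and 6 with anlotinib, against 71.5, 78.1 and 65.1 CPM in RBE control libraries 1, 2 and 3. GCLM had 60.1, 56.5 and 45.0 CPM in the same treated RBE libraries, against 44.4, 45.4 and 42.1 CPM in the controls. The GCLC groups did not overlap, while GCLM of library 6 fell among the controls. GCLC rose by 0.59 ± 0.10 on the log2 scale in RBE (adjusted p = 0.000692). GCLM differed by 0.30 ± 0.14 (adjusted p = 0.174), and by 0.40 without libraries 6 and 7 (adjusted p = 0.0114).

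In HCCC9810 both subunits were lower with anlotinib, and the call was made for the modifier. GCLM had 49.7, 51.6 and 43.7 CPM in HCCC9810 libraries 10, 11 and 12 with anlotinib, against 58.8, 85.1 and 79.0 CPM in control libraries 7, 8 and 9. GCLC had 124, 111 and 120.6 CPM in the same treated libraries, against 135, 141 and 144 CPM in the controls. Neither pair of groups overlapped, and the GCLM control of library 7 lay below the other controls. GCLM fell by 0.62 ± 0.14 on the log2 scale (adjusted p = 0.00651). GCLC differed by -0.24 ± 0.10 (adjusted p = 0.0835), and passed the threshold with library totals, the stricter filter or limma on RPKM (adjusted p between 0.0363 and 0.0424).

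GC content moved with these HCCC9810 results. Over all tested genes the Spearman rho between log2 fold change and GC content was -0.0358 in RBE and 0.296 in HCCC9810. SLC7A11 and GCLM had the lowest GC content of the 9 genes, at 35.4% and 37.3% of the bases of their longest transcript. With a correction for GC content and length in each library, the log2 fold change of SLC7A11 in HCCC9810 was -0.49 (adjusted p = 0.00414), that of GCLM was -0.25 (adjusted p = 0.0785) and that of ME1, with 39.5% GC, was 0.42 (adjusted p = 0.0233). The 7 calls in RBE held under the same correction.

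**Figure D2:**
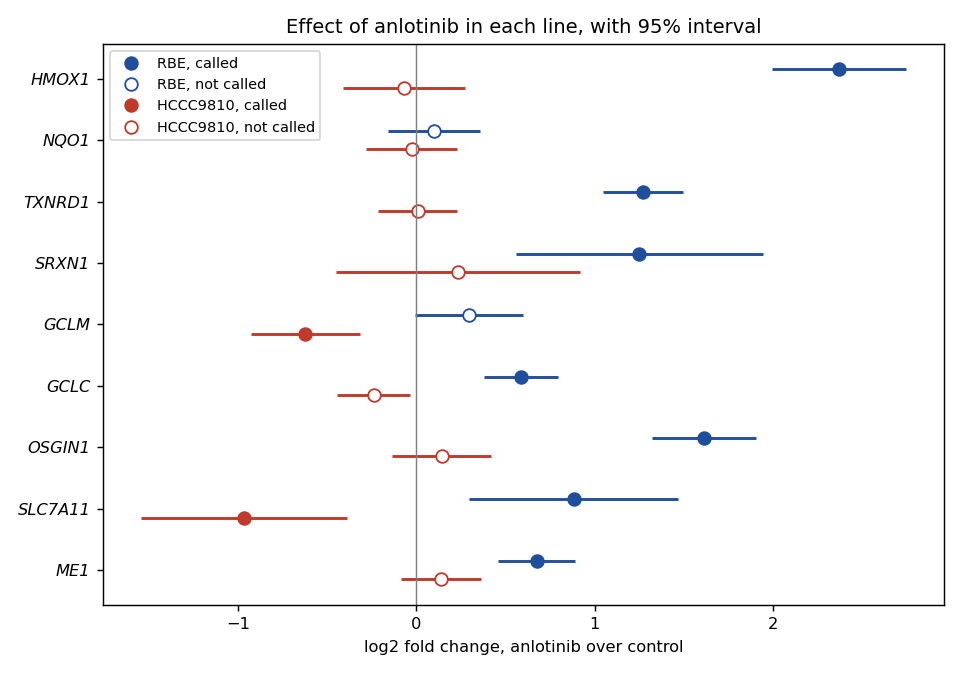
Log2 fold change of anlotinib over control for the 9 genes in each line, with 95% intervals from edgeR's quasi-likelihood fit; filled points passed an adjusted p of 0.05. In RBE 7 of 9 points are filled and all lie right of 0, and in HCCC9810 GCLM and SLC7A11 are filled and lie left of 0.

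TXNRD1 (chromosome 12, 104215779 to 104350305, plus strand) encodes the cytosolic thioredoxin reductase, a selenoenzyme that keeps thioredoxin reduced with electrons from NADPH. It had 1467, 1557 and 1490.0 CPM in RBE libraries 4, 5 and 6 with anlotinib, against 624, 616 and 629.7 CPM in RBE control libraries 1, 2 and 3. The treated and control libraries were far apart, with little spread within each group. The log2 fold change was 1.27 ± 0.11 (adjusted p = 1.77e-06), or 2.41-fold. TXNRD1 had 572, 565 and 540.3 CPM in HCCC9810 libraries 10, 11 and 12 with anlotinib, against 634, 534 and 502 CPM in control libraries 7, 8 and 9, and these overlapped. The log2 fold change in HCCC9810 was 0.01 ± 0.10, with a 95% interval of -0.22 to 0.23.

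TXNRD1 also had the highest level of the 9 genes per length. The RPKM scale divides by a fixed gene length and so allows levels of different genes to be set side by side. That length follows all annotated exon bases of a gene, at 6710 against 6708 for TXNRD1, rather than 1 transcript. TXNRD1 averaged 242 ± 17.0 RPKM in RBE with anlotinib and 96.3 ± 0.652 RPKM in RBE control (SD, n = 3 each). It averaged 76.8 ± 4.40 RPKM in HCCC9810 with anlotinib and 79.9 ± 6.25 RPKM in HCCC9810 control. It ranked first in all 4 groups, with 71.5% of their summed RPKM in RBE with anlotinib and 62.3% in RBE control, and 43.1% in HCCC9810 with anlotinib and 40.9% in HCCC9810 control. SLC7A11 was the lowest in both RBE groups, at 2.02 RPKM with anlotinib and 1.06 RPKM in control, and in HCCC9810 with anlotinib, at 2.40 RPKM. In HCCC9810 control SLC7A11 had 4.93 RPKM and SRXN1 was the lowest, at 3.84 RPKM.

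SRXN1 (chromosome 20, 646615 to 653370, minus strand) encodes sulfiredoxin, which repairs over-oxidised peroxiredoxins. It had 8.04, 9.23 and 18.9 CPM in RBE libraries 4, 5 and 6 with anlotinib, against 5.81, 3.23 and 5.71 CPM in RBE control libraries 1, 2 and 3. The groups did not overlap, and library 6 lay well above the other treated libraries. The log2 fold change was 1.25 ± 0.32 (adjusted p = 0.0166), falling to 0.78 without libraries 6 and 7 (adjusted p = 0.0214), and the call was lost without control library 2 (adjusted p = 0.0599). SRXN1 had 9.98, 12.1 and 15.7 CPM in HCCC9810 libraries 10, 11 and 12 with anlotinib, against 12.5, 10.8 and 9.03 CPM in control libraries 7, 8 and 9, and was not called (0.23 ± 0.32, adjusted p = 0.618). The gene AL121758.1 on the same strand shares 84.95% of the exon bases of SRXN1 and had 0 to 17 counts per library, against at least 60 for SRXN1, so some of its reads may have been lost or split.

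ME1 (chromosome 6, 83210389 to 83431071, minus strand) encodes cytosolic malic enzyme, which makes NADPH as it turns malate into pyruvate. It had 88.3, 86.9 and 80.8 CPM in RBE libraries 4, 5 and 6 with anlotinib, against 56.2, 49.8 and 54.4 CPM in RBE control libraries 1, 2 and 3. The groups were well apart, and ME1 rose by 0.67 ± 0.10 on the log2 scale (adjusted p = 0.000326). In HCCC9810 it was lower in every library than in any RBE library, with 24.6, 22.1 and 23.2 CPM in libraries 10, 11 and 12 with anlotinib, against 19.4, 21.6 and 22.3 CPM in control libraries 7, 8 and 9. These overlapped, and ME1 was not called (0.14 ± 0.11, adjusted p = 0.351).

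HMOX1 (chromosome 22, 35380361 to 35394214, plus strand) encodes heme oxygenase, which opens heme into biliverdin, iron and carbon monoxide and is under BACH1 repression as well as NRF2 activation. It had 23.1, 25.3 and 30.15 CPM in RBE libraries 4, 5 and 6 with anlotinib, against 4.34, 4.42 and 6.29 CPM in RBE control libraries 1, 2 and 3. The lowest treated library lay well above the highest control, and the 5.16-fold increase was the largest of the 9 genes in RBE (95% interval of the log2 fold change 1.99 to 2.74). HMOX1 had 50.2, 35.5 and 44.6 CPM in HCCC9810 libraries 10, 11 and 12 with anlotinib, against 50.3, 42.4 and 44.1 CPM in control libraries 7, 8 and 9. These overlapped (log2 fold change -0.07 ± 0.16, adjusted p = 0.778). Treated RBE cells thus still had less HMOX1 than any HCCC9810 library.

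OSGIN1 (chromosome 16, 83948282 to 83966332, plus strand) encodes an oxidative stress induced growth inhibitor. It had 21.4, 19.6 and 27.0 CPM in RBE libraries 4, 5 and 6 with anlotinib, against 7.35, 6.69 and 8.07 CPM in RBE control libraries 1, 2 and 3. The groups were far apart, with a log2 fold change of 1.61 ± 0.14 (adjusted p = 1.97e-06). OSGIN1 had 30.9, 27.6 and 29.9 CPM in HCCC9810 libraries 10, 11 and 12 with anlotinib, against 27.6, 26.3 and 26.4 CPM in control libraries 7, 8 and 9. The lowest treated library lay just above the highest control, and the difference of 0.14 ± 0.13 was not called (adjusted p = 0.444). AC009119.2 on the same strand shares 13.9% of its exon bases and had 2 to 37 counts per library, against at least 124 for OSGIN1.

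NQO1 (chromosome 16, 69706996 to 69726951, minus strand) encodes a quinone reductase. It had 54.8, 55.0 and 67.7 CPM in RBE libraries 4, 5 and 6 with anlotinib, against 54.8, 50.4 and 60.3 CPM in RBE control libraries 1, 2 and 3. NQO1 had 170.5, 131 and 155 CPM in HCCC9810 libraries 10, 11 and 12 with anlotinib, against 156, 157 and 152 CPM in control libraries 7, 8 and 9. The treatments overlapped in both lines. The log2 fold change was 0.10 in RBE (95% interval -0.16 to 0.35) and -0.03 in HCCC9810 (95% interval -0.28 to 0.23). An antisense gene, AC092115.2, shares 17.7% of its exon bases and had 0 counts in every library.

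The anlotinib effect itself was compared between the lines by the interaction term of the same fit, RBE minus HCCC9810. It was called higher in RBE for 7 of the 9 genes and lower for none, beside 8.92% of all genes called higher and 7.66% called lower. The median over the 9 genes was 1.02, against 0.09 for all genes. The difference was 2.44 ± 0.24 for HMOX1 (adjusted p = 2.59e-05), 1.85 ± 0.38 for SLC7A11 (adjusted p = 0.00737) and 1.47 ± 0.19 for OSGIN1 (adjusted p = 0.000178). It was 1.27 ± 0.15 for TXNRD1 (adjusted p = 9.53e-05), 0.92 ± 0.20 for GCLM (adjusted p = 0.00786) and 0.83 ± 0.14 for GCLC (adjusted p = 0.00135). These 6 differences were called under each of 21 alternatives. For ME1 the difference was 0.54 ± 0.15 (adjusted p = 0.023), and it was lost in 9 of the 21, with 0.27 after the GC and length correction (adjusted p = 0.263), 0.50 with no filter (adjusted p = 0.125) and adjusted p between 0.0506 and 0.0741 without library 1, 2, 4, 5, 8, 9 or 12. SRXN1 (1.02 ± 0.45, adjusted p = 0.133) and NQO1 (0.13 ± 0.17, adjusted p = 0.634) were not called. The SRXN1 difference was 0.42 without libraries 6 and 7 (adjusted p = 0.337), and it was called with no filter (0.98, adjusted p = 0.00464).

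Without drug, RBE had less RNA of most of these genes than HCCC9810. In control cells 7 of the 9 were lower in RBE, 1 was higher and 1 was not called, beside 32.6% of all genes called lower and 31.5% called higher. The difference, RBE control minus HCCC9810 control, was -3.17 ± 0.18 on the log2 scale for HMOX1, -2.32 ± 0.28 for SLC7A11, -1.85 ± 0.14 for OSGIN1 and -1.49 ± 0.12 for NQO1. It was -1.10 ± 0.32 for SRXN1 (adjusted p = 0.0091, and 0.0507 without library 2), -0.97 ± 0.10 for GCLC and -0.76 ± 0.14 for GCLM. ME1 was the exception, higher in RBE control by 1.34 ± 0.10. TXNRD1 differed by 0.16 ± 0.10 (adjusted p = 0.184), and by 0.27 without libraries 6 and 7 (adjusted p = 0.0124).

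With anlotinib in both lines fewer of the genes were called different than in control cells, a change in count that was not tested. Treated RBE minus treated HCCC9810 was called lower for HMOX1 (-0.73 ± 0.16), NQO1 (-1.36 ± 0.12) and OSGIN1 (-0.38 ± 0.13), and higher for ME1 (1.88 ± 0.11) and TXNRD1 (1.43 ± 0.11). That is 3 of 9 lower and 2 of 9 higher, beside 34.0% and 35.5% of all genes, so neither count stands above the share over all genes. SLC7A11 (-0.48, 95% interval -1.05 to 0.10), GCLC (-0.14, 95% interval -0.35 to 0.06), GCLM (0.16, 95% interval -0.15 to 0.46) and SRXN1 (-0.09, 95% interval -0.76 to 0.59) were not called, which does not show that their levels were equal. The OSGIN1 call was lost in 10 of 21 alternatives (adjusted p between 0.0524 and 0.225), including without library 1, 4, 5, 10 or 12. After the GC and length correction GCLC (-0.35, adjusted p = 0.00076) and SLC7A11 (-1.08, adjusted p = 3.41e-07) were called lower in treated RBE, and SLC7A11 was as well without library 10 (adjusted p = 0.04) or with no filter on low counts (adjusted p = 0.0226). Without libraries 6 and 7, SRXN1 was called lower (-0.55, adjusted p = 0.0384) and GCLM higher (0.26, adjusted p = 0.0371). The comparisons of treated and of control cells and the drug effects share libraries, so their values are set side by side and not correlated.

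**Figure D3:**
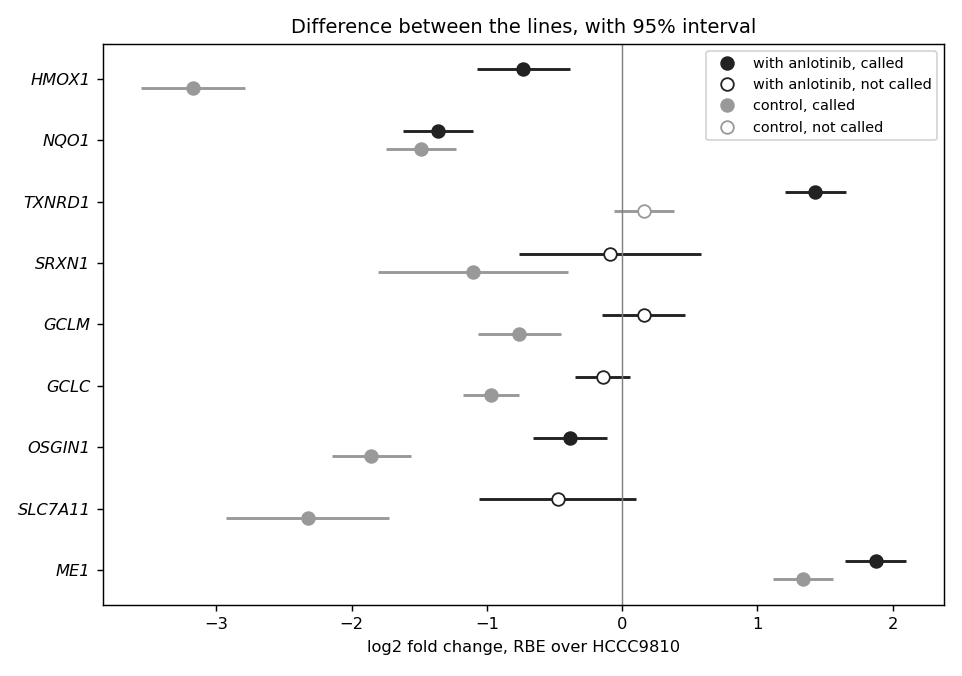
Log2 fold change of RBE over HCCC9810 for the 9 genes, with anlotinib (black) and in control cells (grey), with 95% intervals; filled points passed an adjusted p of 0.05. In control cells 7 genes lie left of 0 and are called, and HMOX1, NQO1 and OSGIN1 are also called lower with anlotinib.

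The order of the 4 groups differed from gene to gene. HMOX1 ran from HCCC9810 control and HCCC9810 with anlotinib, which did not differ beyond their spread, to RBE with anlotinib and then RBE control, both steps being called. OSGIN1 and SRXN1 had no called step among their 3 highest groups, although the ranges of OSGIN1 in HCCC9810 with anlotinib and HCCC9810 control did not overlap, and RBE control was apart at the bottom. GCLC and SLC7A11 were highest in HCCC9810 control, and HCCC9810 with anlotinib and RBE with anlotinib, the next in order, did not differ beyond their spread. GCLM was also highest in HCCC9810 control, and below RBE with anlotinib no neighbours differed. NQO1 split by line alone. TXNRD1 and ME1 were highest in RBE with anlotinib.

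Over the 12 libraries the genes whose log2 CPM was most like HMOX1 were OSGIN1 (Pearson r = 0.988), the AP-1 subunit FOSL2 (0.976) and the macrophage growth factor CSF1 (0.975). Most like NQO1 were SHROOM1 (0.998), SLC27A3 (0.996) and SLC12A9 (0.996). Most like SLC7A11 were the desmosome gene DSP (0.985), RAPGEF2 (0.985) and CUL4B (0.973). The 12 libraries form 4 groups and share their scaling, so these values describe likeness in the group levels and carry no test.

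The regulators of NRF2 were read next. NFE2L2 averaged 119 ± 24.6 CPM in RBE with anlotinib and 85.0 ± 23.1 CPM in RBE control, and 122 ± 25.2 CPM in HCCC9810 with anlotinib and 139.5 ± 20.0 CPM in HCCC9810 control (SD, n = 3 each). It was not called in RBE (0.49 ± 0.22, adjusted p = 0.146) or HCCC9810 (-0.19 ± 0.22, adjusted p = 0.543), and it was lower in RBE control than in HCCC9810 control by a log2 difference of -0.72 (adjusted p = 0.0109). KEAP1 averaged 54.1 ± 11.7 CPM in RBE with anlotinib and 72.2 ± 1.58 CPM in RBE control, and 211.5 ± 30.3 CPM in HCCC9810 with anlotinib and 183 ± 22.2 CPM in HCCC9810 control. It was not called in RBE (-0.42, adjusted p = 0.0607) or HCCC9810 (0.21, adjusted p = 0.301), but its effect was lower in RBE by the interaction term (-0.63, adjusted p = 0.0487), and it was lower in RBE control by -1.34 on the log2 scale (adjusted p = 1.21e-06). BACH1 differed by 0.55 in RBE (adjusted p = 0.218) and by 0.13 in HCCC9810 (adjusted p = 0.771). NFE2L2 and KEAP1 are regulated chiefly as proteins, which these data do not measure.

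Counts of the related lists are to be read beside the shares over all genes, 9.37% higher and 8.32% lower in RBE and 11.1% higher and 12.8% lower in HCCC9810. Of the 10 regulators, 4 rose and none fell in each line, and they were the same genes. Under the alternatives up to 2 regulators were called lower in RBE, and KEAP1 stayed uncalled there in 15 of 22 and was called lower in the other 7 (adjusted p between 0.00107 and 0.278). The autophagy receptor SQSTM1, which draws KEAP1 away from NRF2, rose by 1.27 in RBE and 1.41 in HCCC9810 on the log2 scale. The small MAF partners MAFF (1.48 in RBE, 1.82 in HCCC9810), MAFK (0.64 and 0.83) and MAFG (0.49 and 0.62) rose as well. The interaction term was called for none of the 4, with adjusted p between 0.454 and 0.611. In HCCC9810, 0 of the 9 target genes were called higher and 2 lower. Of 27 further NRF2 targets, taken up below, 6 were higher and 4 lower there. Whether the rise of the 4 regulators bears on these genes was not tested.

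A list of 27 other NRF2 targets had 10 members called higher and 2 lower in RBE, and 6 higher and 4 lower in HCCC9810, with median log2 fold changes of 0.32 in RBE and -0.06 in HCCC9810. The counts called lower are near the shares over all genes, and that in RBE ran between 0 and 4 under the alternatives. The aldo-keto reductases AKR1C2 (1.76 ± 0.19) and AKR1C1 (1.69 ± 0.23) rose in RBE and were not called in HCCC9810 (-0.20 and -0.35), with a called difference between the lines (adjusted p = 0.000191 for AKR1C2 and 0.0014 for AKR1C1). These paralogs are nearly identical, and how reads fitting both were counted is unknown. UGDH, which makes UDP-glucuronic acid, rose in RBE (0.74 ± 0.11) and fell in HCCC9810 (-0.89 ± 0.11), and the export pump ABCC2 did the same (0.61 in RBE, -0.64 in HCCC9810, the call in HCCC9810 being kept in 18 of 22 alternatives). ABCC2 was low in HCCC9810, at 2.67 CPM with anlotinib and 4.2 CPM in control, against 74.0 and 48.6 CPM in RBE. AKR1B10, named after its values were seen, was called higher in RBE (0.45, adjusted p = 0.0393) and lower in HCCC9810 (-0.43, adjusted p = 0.041). Both of these calls were near the threshold. The ferritin light chain FTL rose in both lines (0.62 in RBE, 0.88 in HCCC9810), with processed pseudogenes that could take some of its reads. ABCC4 fell in HCCC9810 (-0.49) and PIR fell in RBE (-0.57), a call kept in 13 of 22 alternatives (adjusted p up to 0.181). PIR was low in RBE, at 1.86 CPM with anlotinib and 2.76 CPM in control.

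Genes that complete, use or break down glutathione were listed apart from the ligase. Of 22 such genes, 2 were higher and 3 lower in RBE, and 6 were higher and 2 lower in HCCC9810. The 2 higher in RBE are near the share over all genes. The glutathione-degrading CHAC1, a target of ATF4, rose in HCCC9810 (1.53 ± 0.29) and was not called in RBE (0.58, adjusted p = 0.141), a difference between the lines that was not called (-0.95, adjusted p = 0.103). CHAC1 was low in both lines, at 5.68 CPM with anlotinib and 1.91 CPM in control in HCCC9810, and 4.27 and 2.775 CPM in RBE. The hydrolase HAGH (1.05) and the peroxidase GPX1 (0.65) rose in HCCC9810 and were not called in RBE (0.20 and -0.22), and the membrane transferase MGST1 rose in both lines (0.56 in RBE, 0.53 in HCCC9810). The external glutathione cleaver GGT1 fell in both (-0.90 in RBE, -1.10 in HCCC9810), as did GGCT (-0.39 and -0.82), whose call in RBE was kept in 10 of 22 alternatives (adjusted p up to 0.124), and CHAC2 fell in RBE (-0.90). GSS, which completes glutathione and is named after its values were seen, was not called in RBE (-0.34) or HCCC9810 (0.39), although its effect differed between the lines (-0.73, adjusted p = 0.0208).

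Of 10 genes of cystine and cysteine supply, 7 were tested, with 1 higher and 1 lower in RBE, and 2 higher and 1 lower in HCCC9810. SLC3A2, the heavy chain that carries SLC7A11 to the membrane, rose in RBE (0.48 ± 0.15, adjusted p = 0.0397) and was at 0.05 in HCCC9810 (adjusted p = 0.823), a difference that was not called (adjusted p = 0.174). The SLC3A2 call in RBE was kept in 12 of 22 alternatives (adjusted p up to 0.153). The transsulfuration enzyme CBS rose in HCCC9810 (1.38 ± 0.18) and was at 0.02 in RBE, a called difference (adjusted p = 0.00183), and MPST also rose in HCCC9810 (0.46, kept in 15 of 22 alternatives). CBS was low in HCCC9810, at 8.95 CPM with anlotinib and 3.46 CPM in control, against 48.7 and 47.8 CPM in RBE. The methionine adenosyltransferase MAT2A fell in both lines (-0.44 in RBE, -1.03 in HCCC9810).

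Among 12 genes of heme and iron handling, 5 were higher and 1 lower in RBE, and 3 were higher and 2 lower in HCCC9810, the counts called lower being near the shares over all genes. ALAS1, the first enzyme of heme synthesis, rose in both lines (0.58 in RBE, 0.70 in HCCC9810), and the heme exporter FLVCR1 rose in RBE (0.78). The iron exporter SLC40A1 fell in HCCC9810 (-0.98), and FECH, which puts iron into heme, fell in RBE (-0.36, kept in 13 of 22 alternatives). The transporter ABCG2 was called higher in RBE (1.80) at a very low level of 0.786 CPM with anlotinib and 0.247 CPM in control, and lower in HCCC9810 (-0.74), where it had 42.7 CPM with anlotinib and 71.4 CPM in control.

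NADPH, which the reductases above consume, comes from 12 further listed enzymes, of which 3 were higher and 1 lower in RBE, and 4 higher and none lower in HCCC9810. The pentose phosphate enzyme PGD (0.75 in RBE, 0.74 in HCCC9810) and the cytosolic IDH1 (0.71 and 0.87) rose in both lines. TKT rose in HCCC9810 (0.43), and the mitochondrial IDH2 fell in RBE (-0.53), each call being kept in 17 of 22 alternatives.

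Of 15 peroxide and thioredoxin enzymes, 14 were tested, with none higher and 3 lower in RBE, and 2 higher and 1 lower in HCCC9810. The peroxiredoxins PRDX4 (-0.46), PRDX2 (-0.54) and PRDX1 (-0.34) fell in RBE, where SRXN1, which repairs enzymes of this family, rose. The calls of PRDX4 and PRDX2 were each kept in 18 of 22 alternatives and that of PRDX1 in 7 of 22 (adjusted p up to 0.294), and the count lower in RBE ran between 0 and 9. PRDX5 (0.69) and PRDX3 (0.32) rose and TXNRD3 fell (-0.54) in HCCC9810. There PRDX3 kept its call in 10 of 22 alternatives (adjusted p up to 0.176) and TXNRD3 in 19 of 22, and the count higher ran between 1 and 8. Of 8 ATF4 genes, a pathway that shares SLC7A11 and CHAC1 with the genes above, 4 were higher in RBE and 8 in HCCC9810, with TRIB3 at 2.12 in RBE and 1.12 in HCCC9810, ATF3 at 2.39 and 2.23, DDIT3 at 1.43 and 1.58 and ATF4 itself at 0.44 and 0.82. SLC7A11 fell in HCCC9810, where all 8 of these rose, and a link between the changes was not tested.

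The median log2 fold change of the tested genes of each list, to be read beside 0.02 in RBE and -0.05 in HCCC9810 for all genes, was 0.49 in RBE and 0.20 in HCCC9810 for the regulators. It was 0.01 in RBE and 0.19 in HCCC9810 for glutathione use and breakdown, and 0.02 and 0.05 for cystine and cysteine supply. Heme and iron handling had 0.27 in RBE and 0.14 in HCCC9810, and NADPH supply had 0.01 and 0.28. Peroxide and thioredoxin enzymes were at -0.23 in RBE and 0.24 in HCCC9810, and the ATF4 genes at 0.56 and 1.12. The 27 other NRF2 targets had 0.32 in RBE and -0.06 in HCCC9810. The 9 target genes had the highest median of these groups in RBE, and in HCCC9810 the ATF4 genes did. The 9 genes and the lists were chosen with earlier results of these data known, so this order is a description and carries no test.

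**Figure D4:**
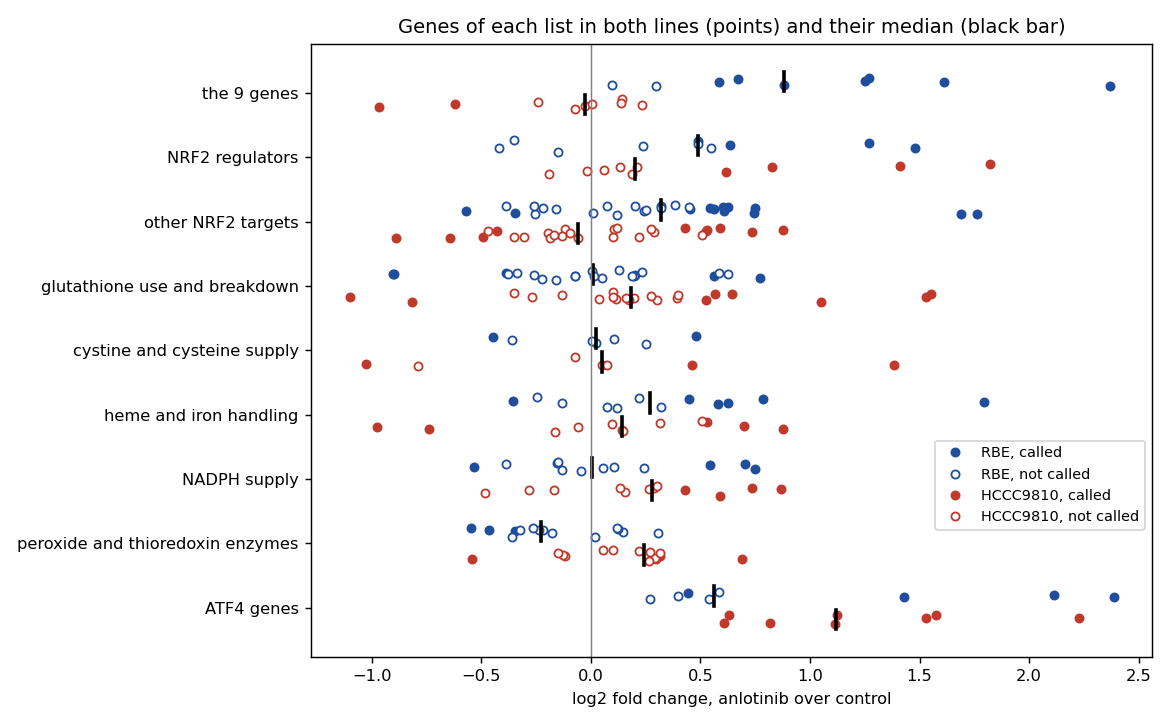
Log2 fold change of anlotinib over control for the 9 genes and for each of 8 related lists, RBE in blue above HCCC9810 in red, with filled points called and black bars at the medians. The 9 genes of RBE have a median of 0.88, above the RBE medians of the 8 lists, while in HCCC9810 their median is -0.03. The genes and lists were chosen with earlier results of these data known.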

How the data were processed

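RNA sequencing was done on 12 libraries in 4 groups of 3. The deposited counts are whole numbers per gene with no scaling. The deposited RPKM values equal the count divided by a fixed gene length and the column total, with the length constant within 0.0399%. HISAT2 and GRCh38 are named in the submitters' processing notes, while the sources used here give no counter, strand setting or rule for shared reads, so reads of overlapping genes may be split. All 58216 identifiers were found in GENCODE 29, the source of coordinates and GC content.

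Counts were fitted with edgeR 4.0.16 in R 4.3.3: expression filter on the 4 groups, TMM scaling, 4 group means, robust quasi-likelihood F-tests (two-sided) and Benjamini-Hochberg adjustment over all 18035 tested genes. The SE is the log2 fold change divided by the square root of F. CPM use TMM-scaled library sizes. The p-values set each difference against the spread between deposited replicates within groups, estimated over the 4 groups of both lines together. The numbers in the headers are shared by no libraries of different groups, so no pairing was used.

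The 9 genes and the lists were chosen with earlier results of these data known. All 9 are named throughout. From each list the called genes with the smallest adjusted p were named, at most 4 per direction, with NFE2L2, KEAP1 and BACH1 always named. GSS and AKR1B10 were added after their values were seen. SOD2 has more than 1 identifier and was left out. Some listed genes are not reported here by name. Likeness was ranked among genes with a mean of at least 5 CPM. Alternatives were DESeq's ratio scaling, library totals, no filter, at least 5 CPM in 3 libraries, DESeq2 1.42.0, limma 3.58.1 on log2(RPKM + 1) or log2(RPKM + 0.1), each line alone, a GC and length correction, leaving out libraries 6 and 7, and leaving out each of 12 libraries. The fit was tested on simulated data.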

Additional observations from a re-analysis of the deposited data

Results flagged for a closer look

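The effect of anlotinib differed between the lines for 7 of the 9 genes by the interaction term of edgeR's quasi-likelihood fit. By the same term 8.92% of all genes were called higher and 7.66% lower. The difference, RBE minus HCCC9810, was 2.44 for HMOX1, 1.85 for SLC7A11, 1.47 for OSGIN1, 1.27 for TXNRD1, 0.92 for GCLM, 0.83 for GCLC and 0.54 for ME1 on the log2 scale, all toward a higher effect in RBE. The ME1 difference was kept in 12 of 21 alternatives and was 0.27 after the GC and length correction (adjusted p = 0.263). SLC7A11 was called in both lines and in opposite directions, and GCLM was called in HCCC9810, where it fell. The SLC7A11 call was kept in 13 of 22 alternatives in RBE and in 18 of 22 in HCCC9810. The GCLM call in HCCC9810 was lost after the GC and length correction (adjusted p = 0.0785). With 3 libraries per group no single library was tested as an outlier.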

How the results depend on the processing

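The 9 genes gave 963 values under the alternatives, of which 909 kept their side of the threshold, 35 lost the call and 19 gained it. No called value changed sign, while some values that were not called did, among them HMOX1 in HCCC9810. In RBE 5 to 8 genes were higher when 1 library was left out. In HCCC9810 the GC and length correction gave 1 gene higher and 1 lower in place of 0 and 2, and leaving out 1 library gave 1 to 2 lower. In control cells RBE had 2 genes higher in place of 1, the added gene being TXNRD1, with library totals, both limma fits and without libraries 6 and 7, and 1 to 2 when 1 library was left out. The counts over all genes moved more. Without libraries 6 and 7, 2495 genes were lower in RBE, 3097 higher in HCCC9810, and the difference of effects was higher for 3172 and lower for 3241. With the GC and length correction 2565 were lower in RBE and 2620 lower in the difference. Leaving out 1 library gave 1056 to 1891 higher and 745 to 1859 lower in RBE, 1113 to 2421 higher and 1292 to 2622 lower in HCCC9810, and 836 to 2467 higher and 627 to 2398 lower in the difference. The cause was not tested. Scaling by library totals moved the median of all genes by 0.06 in RBE and -0.07 in HCCC9810. No paired analysis was possible because the groups share no replicate numbers. Depth limits SRXN1 most, with at least 60 counts per library.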
